A study of Mus musculus with 6 samples.

Results

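The genes described are 9 genes of the Trem2-type lipid-associated macrophage programme, taken by symbol from a table of 35275 genes: Trem2, Tyrobp, Apoe, Spp1, Gpnmb, Fabp5, Lpl, Cd9 and Lgals3. Each symbol had 1 row, and all 9 genes passed a filter on low values that 12332 genes passed in all (a mean FPKM of at least 1, FPKM being a read count scaled to gene length and library depth). Expression was measured by RNA sequencing in tumour-associated macrophages. The cells were sorted by flow cytometry for CD11b and F4/80 and against Ly6G and Ly6C. They came from MMTV-PyMT females (FVB/NJ) aged 65 days. MMTV-PyMT mice develop spontaneous mammary tumours driven by polyoma middle T antigen. Both groups carried Atg5flox/flox alleles. The 3 mice labelled Atg5 WT had no Cre, and the 3 labelled Atg5 KO also carried LysMcre, which is active in myeloid cells in general and not in macrophages alone. The comparison asks how tumour macrophages differ when Atg5, a gene required for autophagosome formation, is targeted for deletion.

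Trem2 is a surface receptor of macrophages and microglia that binds lipids, lipoproteins and cell debris, and it signals through Tyrobp (also called DAP12), an adaptor with an immunoreceptor tyrosine-based activation motif that recruits the kinase Syk. Macrophages that take up much lipid, in obese fat, in atherosclerotic plaques and in tumours, are known for a shared set of transcripts around this receptor. In that set Apoe and Lpl handle lipoprotein lipid, Fabp5 carries fatty acids inside the cell, Gpnmb and Cd9 are membrane glycoproteins, and Spp1 (osteopontin) and Lgals3 (galectin-3) are secreted. Spp1, Cd9, Lgals3 and Fabp5 are also known to be expressed by epithelial and tumour cells, whereas Trem2 and Tyrobp are largely restricted to cells of blood origin.

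Positions are on mm10. Trem2 (ENSMUSG00000023992) lies on chromosome 17 from 48346401 to 48354147, Tyrobp (ENSMUSG00000030579) on chromosome 7 from 30413788 to 30417577, and Apoe (ENSMUSG00000002985) on chromosome 7 from 19696109 to 19699166. Spp1 (ENSMUSG00000029304) is on chromosome 5 from 104435118 to 104441050 and Lpl (ENSMUSG00000015568) on chromosome 8 from 68880491 to 68907448. Gpnmb (ENSMUSG00000029816) and Cd9 (ENSMUSG00000030342) are on chromosome 6, from 49036518 to 49058182 and from 125460266 to 125494791. Fabp5 (ENSMUSG00000027533) is on chromosome 3 from 10012548 to 10016607 and Lgals3 (ENSMUSG00000050335) on chromosome 14 from 47367751 to 47386160. In GENCODE release M21 a predicted gene overlaps Spp1 on the same strand and 2 overlap Cd9 on the opposite strand, so reads of those loci could be divided or shared. Values cover all counted exons, and none isolates a single exon or UTR.

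The 250 bases before the start site are shown for 3 genes that stood at the ends of the patterns described here: Trem2 and Apoe, whose levels ran with the macrophage markers, and Spp1, whose level ran with the epithelial markers. They are RefSeq sequences on GRCm38.p6, the assembly of mm10, at chr17:48346151-48346400 on the plus strand, chr7:19699189-19699438 on the minus strand (the most upstream of 3 listed Apoe starts) and chr5:104434861-104435110 on the plus strand (the more upstream of 2 Spp1 starts). Capitals mark GAGGAA, a core that PU.1 and other ETS factors bind, and TATAAA, each searched on both strands.
Trem2: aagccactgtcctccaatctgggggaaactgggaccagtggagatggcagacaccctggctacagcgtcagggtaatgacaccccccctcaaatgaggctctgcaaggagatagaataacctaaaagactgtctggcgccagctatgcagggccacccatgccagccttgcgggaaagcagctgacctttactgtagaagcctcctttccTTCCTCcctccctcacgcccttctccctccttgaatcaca
Apoe: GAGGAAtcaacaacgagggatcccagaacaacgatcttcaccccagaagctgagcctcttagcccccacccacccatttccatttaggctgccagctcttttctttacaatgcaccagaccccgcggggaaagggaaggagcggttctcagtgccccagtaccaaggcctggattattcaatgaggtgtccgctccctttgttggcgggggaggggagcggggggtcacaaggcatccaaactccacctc
Spp1: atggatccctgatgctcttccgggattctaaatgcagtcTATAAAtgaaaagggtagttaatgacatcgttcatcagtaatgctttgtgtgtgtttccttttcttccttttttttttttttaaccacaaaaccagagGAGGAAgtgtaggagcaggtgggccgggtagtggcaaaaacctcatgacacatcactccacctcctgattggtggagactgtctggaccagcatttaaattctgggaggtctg
GAGGAA or its reverse complement starts 40 bases before the Trem2 start, 250 before the Apoe start and 113 before the Spp1 start, and is present in 23.3% of 32851 such windows. TATAAA was found 211 bases before the Spp1 start and is present in 12.4% of windows. Neither the AP-1 letters TGACTCA (4.46% of windows) nor the E-box CACGTG bound by MITF and TFEB (6.02%) was in these 3 windows. A match of letters is a description and shows no binding. Of the 9 genes, 6 had an entry in the table, and Tyrobp, Fabp5 and Lpl are named only. The windows of Gpnmb, Cd9 and Lgals3 held none of these letters, nor did that of the more downstream Spp1 start. Of the Apoe starts not shown, the most downstream had GAGGAA 132 bases before it. The other had TATAAA and no GAGGAA.

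Library depth was similar, between 18770262 and 21173301 recovered reads. Atg5 itself went against the labels at the level of the whole gene, with an FPKM of 5.18 ± 0.0875 in the Atg5 WT-labelled libraries and 16.0 ± 1.77 in the Atg5 KO-labelled ones (SD, n = 3 each here and below), 3.09-fold higher. No value isolates the floxed exon, so this one checks nothing about the deleted part. Lyz2, which carries the Cre of LysMcre, went with the labels, at 4446 ± 2267 against 12.1 ± 3.85. All directions below follow the labels with that limit. The sorting antigens Itgam (CD11b; 53.9 to 177) and Adgre1 (F4/80; 49.97 to 258) were detected in every library, and Ly6g was at 0 in 4 libraries and at most 0.308. Ly6c2 stood at 0.483 to 0.875 in the Atg5 WT-labelled libraries and at 5.71, 0.702 and 5.29 in the Atg5 KO-labelled ones. Transcripts of epithelial cells were present in all libraries in unequal amounts. Krt8, a luminal keratin, stood at 474, 798 and 108 FPKM (Atg5 WT mice 1 to 3) and at 302, 105 and 49.0 FPKM (Atg5 KO mice 1 to 3). The mean of each of the 21 epithelial markers was lower with the KO label, none was at 0, and their summed FPKM ran from 1090 to 11431 in Atg5 WT-labelled libraries and from 1012 to 4127 in the Atg5 KO-labelled ones. The library labelled Atg5 WT mouse 2 stood apart, with the highest epithelial score (7.32, the mean log2(FPKM + 1) of the 21 markers, against 3.86 to 6.36 in the others) and the lowest macrophage score (6.80 over 17 markers without Lyz2, against 8.02 to 8.69). Markers of other cell types differed too, where 62.8% of all genes tested had a negative difference and 9.41% were lower without overlap. All 12 fibroblast and pericyte markers had a negative difference (median -1.73, 11 without overlap, summed FPKM 279 to 1516 against 76.0 to 206). So did 9 of 10 endothelial markers (median -1.10, summed FPKM 45.3 to 103 against 30.1 to 41.3) and 5 of 6 tested markers of mast cells and eosinophils (median -1.54, summed FPKM 21.8 to 98.1 against 8.26 to 20.4). Among tested markers of monocytes and neutrophils 3 of 7 had a positive difference (median -0.53, summed FPKM 139 to 377 against 124 to 157), of dendritic cells 1 of 6 (median -0.28, 44.3 to 86.9 against 50.8 to 108) and of lymphocytes 2 of 4 (median -0.44, 14.3 to 33.6 against 22.8 to 26.2). The part of these cells in the results below was not tested. In such bulk samples fewer macrophages and less RNA per macrophage cannot be told apart.

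Of the 9 genes, 7 had a higher and 2 a lower mean in the Atg5 KO-labelled libraries, and none passed the test over all genes. A positive difference was found for 37.2% of all genes tested and a negative one for 62.8%. The 1 gene past an adjusted p of 0.05 was Lyz2, which carries the Cre, and it was lower (limma-trend adjusted p = 0.0306). The members past an adjusted p of 0.05 numbered 0 (limma-trend; 0 also by limma-voom on recovered reads), where 0.00811% of all genes were called, and 1 member, Lpl, had an unadjusted p under 0.05, as 10% of all genes did (4.84% higher and 5.17% lower). That member count was 6 without Atg5 WT mouse 3, when 1221 genes were higher and 2851 lower at this p, and 0 without Atg5 KO mouse 3. The median log2 difference over the 9 genes was 0.43, beside -0.09 over all genes tested. The groups did not overlap for 2 of the 9, Apoe and Lpl, both higher, while 9.2% of all genes were higher and 9.41% lower without overlap, 18.6% in all. Together the 9 genes took 2.40%, 1.28% and 3.03% of recovered reads in Atg5 WT mice 1 to 3 and 3.67%, 3.61% and 4.34% in Atg5 KO mice 1 to 3, most of it Apoe. Differences are given as labelled Atg5 KO minus labelled Atg5 WT on the log2(FPKM + 1) scale.

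**Figure D1:**
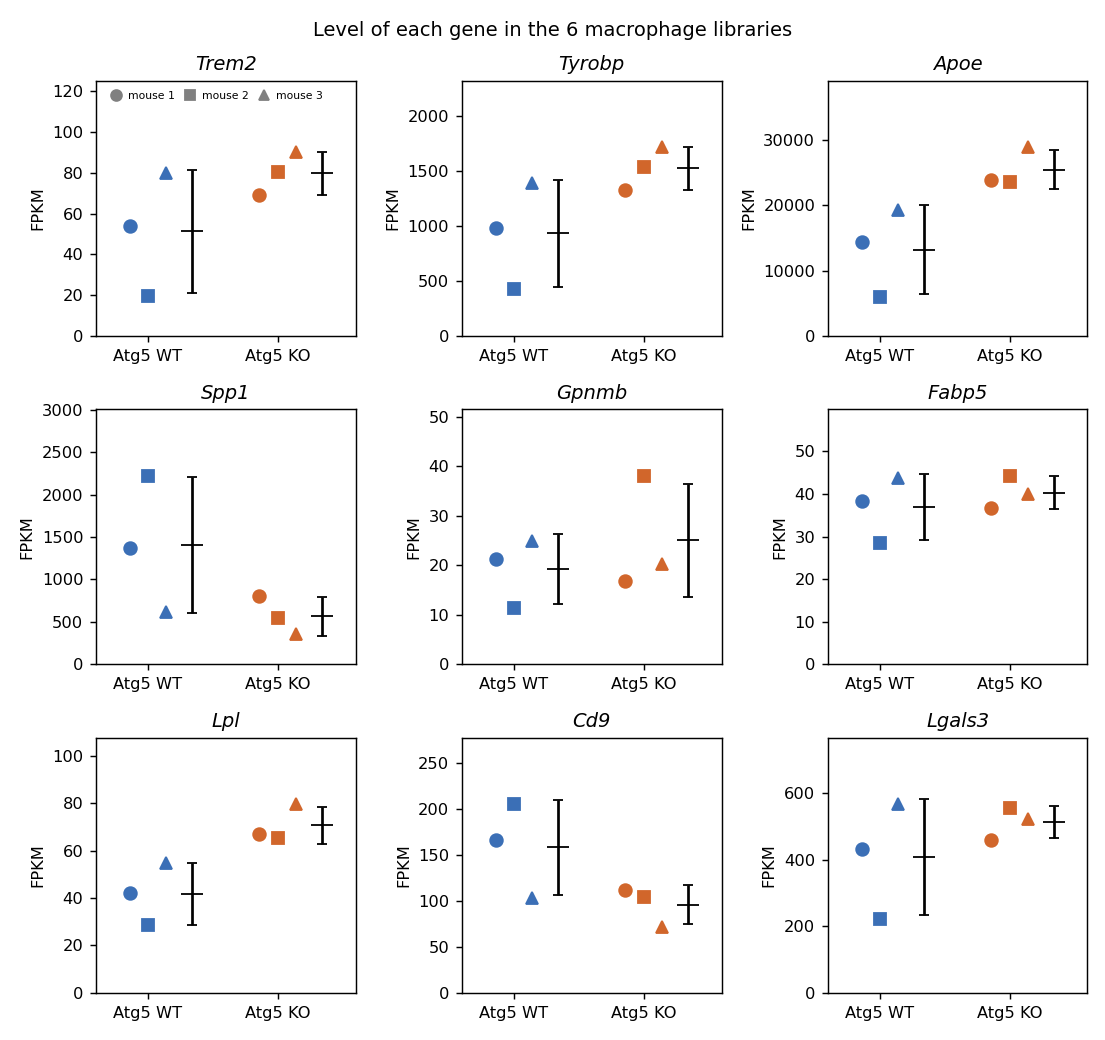
FPKM of each gene in the 6 libraries (points, marker shape giving the mouse number within a group, which was not used to pair mice), with the mean and SD of each group (black, n = 3). Each panel has its own axis from 0. Atg5 WT mouse 2 is the lowest library for 7 genes and the highest for Spp1 and Cd9.

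Trem2, the receptor, stood at an FPKM of 54.0, 19.8 and 80.0 in the Atg5 WT-labelled libraries and of 68.9, 80.5 and 90.1 in the Atg5 KO-labelled ones. The groups overlapped, because Atg5 WT mouse 3 was above Atg5 KO mouse 1, and the spread within Atg5 WT was far wider than within Atg5 KO. The means were 51.3 ± 30.2 and 79.8 ± 10.6, a log2 difference of 0.83 (SE 0.50, limma-trend adjusted p = 0.528), which was 0.27 without Atg5 WT mouse 2 and 1.25 without Atg5 WT mouse 3. Tyrobp, its signalling adaptor, had 984, 425 and 1385 against 1324, 1532 and 1715. The libraries fell in the same order as for Trem2, from Atg5 KO mouse 3 at the top to Atg5 WT mouse 2 at the bottom, and the groups again overlapped. The log2 difference was 0.86 (SE 0.44, limma-trend adjusted p = 0.506). Tyrobp stood 17.3 to 21.4 times above Trem2 in FPKM and 2.04 to 2.53 times in recovered reads, the FPKM ratio being raised by the long listed length of Trem2 described with the levels. The log2 ratio of Trem2 to Tyrobp was -4.20 ± 0.134 in the Atg5 WT-labelled libraries and -4.24 ± 0.00636 in the Atg5 KO-labelled ones, a difference of -0.03 (exact two-sided permutation p = 0.7, the smallest possible being 0.1). The Trem2 level ranged 4.55-fold, and its low end was Atg5 WT mouse 2 alone, which also had the highest FPKM ratio of Tyrobp to Trem2 (21.4). In the other libraries Trem2 ran from 54.0 to 90.1 and receptor and adaptor transcripts kept nearly the same ratio, 17.3 to 19.2.

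Apoe, which packages lipid into lipoproteins and is a ligand of Trem2, stood at an FPKM of 14366, 5982 and 19349 in the Atg5 WT-labelled libraries and of 23900, 23507 and 28906 in the Atg5 KO-labelled ones. Every library labelled Atg5 KO lay above every library labelled Atg5 WT. Apoe ranked first among all genes of the table in 5 of 6 libraries and second in Atg5 WT mouse 2. It took 1.83% ± 0.936 of the recovered reads in Atg5 WT-labelled libraries and 3.53% ± 0.417 in the Atg5 KO-labelled ones. The mean FPKM was 1.92-fold higher, with a log2 difference of 1.10 (SE 0.51, 95% interval -0.16 to 2.35, limma-trend adjusted p = 0.494). Under quantile normalization, which gives the top-ranked gene of every library the same value, the difference was 0.42.

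Lpl, the lipase that releases fatty acids from lipoprotein triglyceride, had 42.2, 28.4 and 54.6 in the Atg5 WT-labelled libraries and 67.1, 65.1 and 79.6 in the Atg5 KO-labelled ones. These groups did not overlap either, and the mean was 1.69-fold higher. The log2 difference was 0.79 (SE 0.24, 95% interval 0.19 to 1.39), with the smallest p of the 9 genes (unadjusted p = 0.0187, limma-trend adjusted p = 0.492). Adipocytes are another known source of Lpl. Of 8 adipocyte markers Fabp4, which macrophages and endothelium also express, ran from 13.5 to 119 FPKM, and the other 7 were at most 0.732 in every library. The summed FPKM of the 8 was 25.2 to 120 in the Atg5 WT-labelled libraries and 13.8 to 39.5 in the Atg5 KO-labelled ones, and their part in the Lpl values was not tested. Fabp5, the epidermal-type fatty acid binding protein, had 38.4, 28.6 and 43.8 against 36.7, 44.3 and 40.0. It was the most even of the 9 genes, with a 1.55-fold range over the 6 libraries, and its groups overlapped (log2 difference 0.14, SE 0.18, 95% interval -0.29 to 0.58, limma-trend adjusted p = 0.687).

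Lgals3, a galactose-binding lectin found in phagosomes and outside the cell, stood at an FPKM of 433, 222 and 567 in the Atg5 WT-labelled libraries and of 460, 555 and 521 in the Atg5 KO-labelled ones. Its highest and its lowest library were both labelled Atg5 WT (log2 difference 0.43, SE 0.35, limma-trend adjusted p = 0.571). Gpnmb, a transmembrane glycoprotein of lysosome-rich macrophages, had 21.3, 11.4 and 24.97 against 16.7, 38.1 and 20.2. Atg5 KO mouse 2 alone stood above the Atg5 WT range, and the other 2 Atg5 KO-labelled libraries lay inside it (log2 difference 0.34, SE 0.40, limma-trend adjusted p = 0.664). Without Atg5 KO mouse 2 the difference was 0.0069. Gpnmb was the member with the widest relative spread in the Atg5 KO-labelled libraries, with an SD of 45.8% of the mean.

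Spp1 and Cd9 had lower means in the Atg5 KO-labelled libraries. Spp1, the secreted integrin and CD44 ligand osteopontin, had 1367, 2223 and 619 in Atg5 WT-labelled libraries and 809, 542 and 355 in the Atg5 KO-labelled ones. The groups overlapped, since Atg5 WT mouse 3 was below Atg5 KO mouse 1, and the highest library was 6.26 times the lowest, the widest range of the 9 genes. The mean was 2.47 times as high in the Atg5 WT-labelled libraries, with a log2 difference of -1.20 (SE 0.54, 95% interval -2.52 to 0.13, limma-trend adjusted p = 0.494). Cd9, a tetraspanin of the plasma membrane and of extracellular vesicles, had 166, 206 and 104 against 112, 104 and 72.1. Atg5 WT mouse 3 lay within the Atg5 KO range (log2 difference -0.68, SE 0.30, limma-trend adjusted p = 0.492). The 3 highest libraries of both genes were, in falling order, Atg5 WT mice 2 and 1 and Atg5 KO mouse 1, as they were for all 21 epithelial markers. The order of all 6 libraries was that of Spp1 for 6 of these markers and that of Cd9 for 7. The ratio of Apoe to Spp1 in FPKM was 10.5, 2.69 and 31.3 in Atg5 WT-labelled libraries and 29.5, 43.3 and 81.5 in the Atg5 KO-labelled ones.

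**Figure D2:**
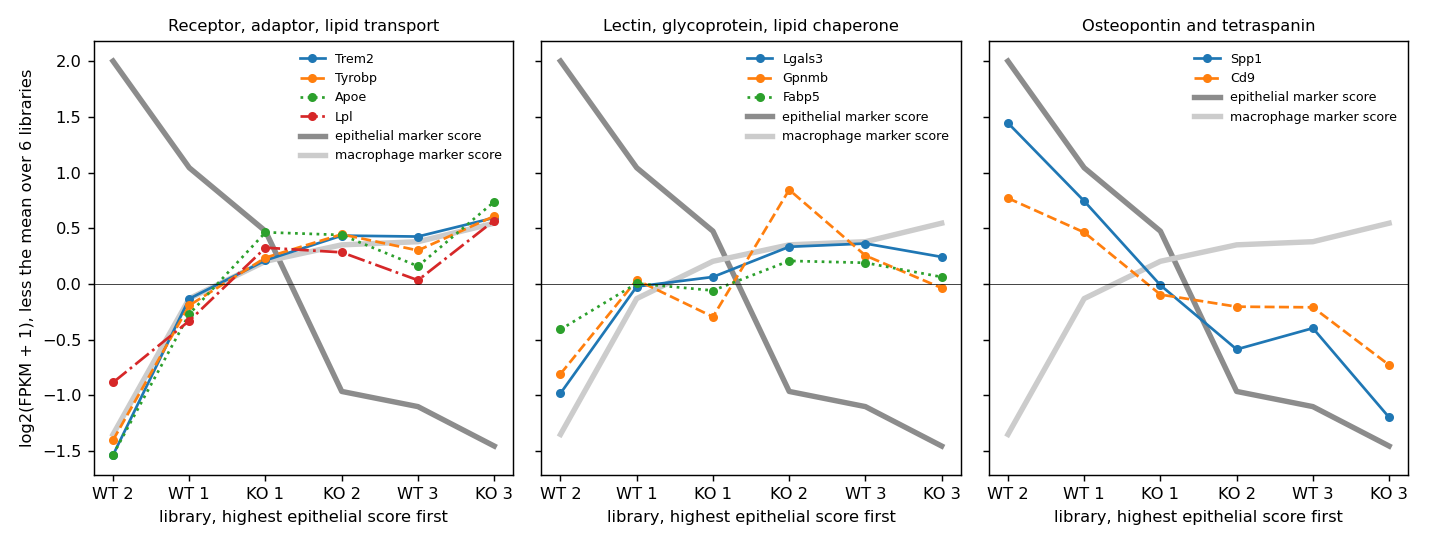
Centred log2(FPKM + 1) of the 9 genes (coloured lines, 3 panels) with the epithelial (dark grey) and macrophage (light grey) marker scores centred the same way; libraries are ordered by epithelial score, highest first. Trem2, Tyrobp, Apoe, Lgals3 and Lpl run near the macrophage score, Spp1 and Cd9 fall along the epithelial score, and Gpnmb departs at Atg5 KO mouse 2.

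The marker scores moved with these differences. The epithelial score was 5.97 ± 1.59 in Atg5 WT-labelled libraries and 4.67 ± 1.00 in the Atg5 KO-labelled ones, and the macrophage score without Lyz2 was 7.78 ± 0.889 against 8.51 ± 0.172 (exact two-sided permutation p = 0.3 for each). With the epithelial score as a covariate the log2 differences of Trem2, Tyrobp and Apoe were 0.23, 0.33 and 0.60, that of Lpl was 0.50, and those of Spp1 and Cd9 were -0.45 and -0.29. Lgals3, Gpnmb and Fabp5 were then at 0.022, -0.041 and -0.054. None passed with that covariate (smallest limma-trend adjusted p = 0.469). Without the library labelled Atg5 WT mouse 2 the differences were 0.27 for Trem2, 0.38 for Tyrobp, 0.60 for Apoe, 0.54 for Lpl, 0.043 for Lgals3, 0.026 for Gpnmb and -0.027 for Fabp5, and -0.77 and -0.47 for Spp1 and Cd9. The median over the 9 genes was then 0.043, and none passed (smallest limma-trend adjusted p = 0.593).

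**Figure D3:**
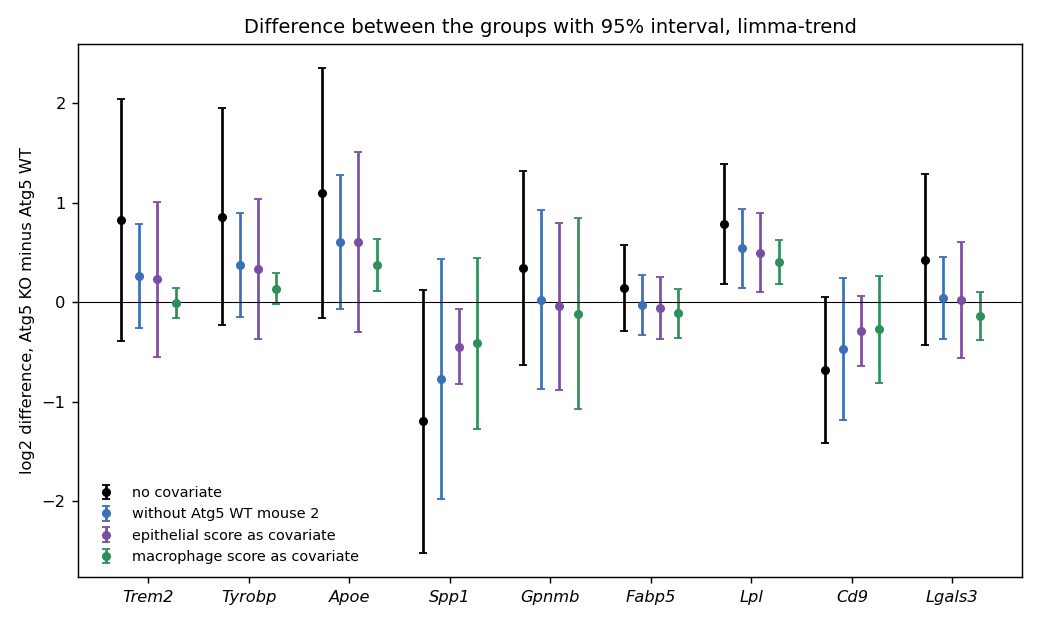
Log2 difference with 95% interval for each gene from limma-trend, for all 6 libraries without covariate (black), without Atg5 WT mouse 2 (blue), with the epithelial score (purple) and with the macrophage score (green) as covariate. Lpl is the gene whose interval lies above 0 in all 4 fits.

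Set against the macrophage markers within each library, the members separated further. Trem2 log2(FPKM + 1) less the macrophage score was -2.23, -2.42 and -2.19 in Atg5 WT-labelled libraries and -2.22, -2.15 and -2.18 in the Atg5 KO-labelled ones. Its SD over the 6 libraries was 0.0958, where the Trem2 level itself had an SD of 0.793, so Trem2 transcripts moved almost in step with the macrophage markers. Tyrobp less the score was 1.93, 1.94 and 1.91 against 2.02, 2.08 and 2.05, and Apoe less the score was 5.79, 5.75 and 5.71 against 6.19, 6.02 and 6.13. Both were higher in every library labelled Atg5 KO than in every library labelled Atg5 WT, by a mean of 0.13 for Tyrobp and 0.36 for Apoe. The exact two-sided permutation p was 0.1 for each, the smallest possible. Over all genes 0.568% were higher without overlap on this scale and 13.8% lower, shares not restricted to macrophage genes. The log2 differences of the markers in the score ran from -0.36 (Cd14) to 1.13 (Aif1), where the score itself differed by 0.73. The shift is therefore not shown to be particular to Tyrobp and Apoe. Lgals3 was lower without overlap, at 0.747, 1.01 and 0.622 against 0.498, 0.621 and 0.336, where the nearest libraries of the groups were all but equal. Lpl less the score overlapped, at -2.58, -1.92 and -2.73 against -2.26, -2.45 and -2.36, with Atg5 WT mouse 2 the highest. Spp1 and Cd9 varied most on this scale, with an SD over 6 libraries of 1.62 and 1.20. With the macrophage score as a covariate the differences were 0.37 for Apoe (SE 0.10), 0.40 for Lpl (SE 0.09) and 0.14 for Tyrobp (SE 0.06), and Trem2 stood at -0.0062 (SE 0.06, 95% interval -0.16 to 0.15). None passed in that fit (limma-trend adjusted p = 0.404 for Apoe and Lpl, 0.427 for Tyrobp and 0.973 for Trem2).

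**Figure D4:**
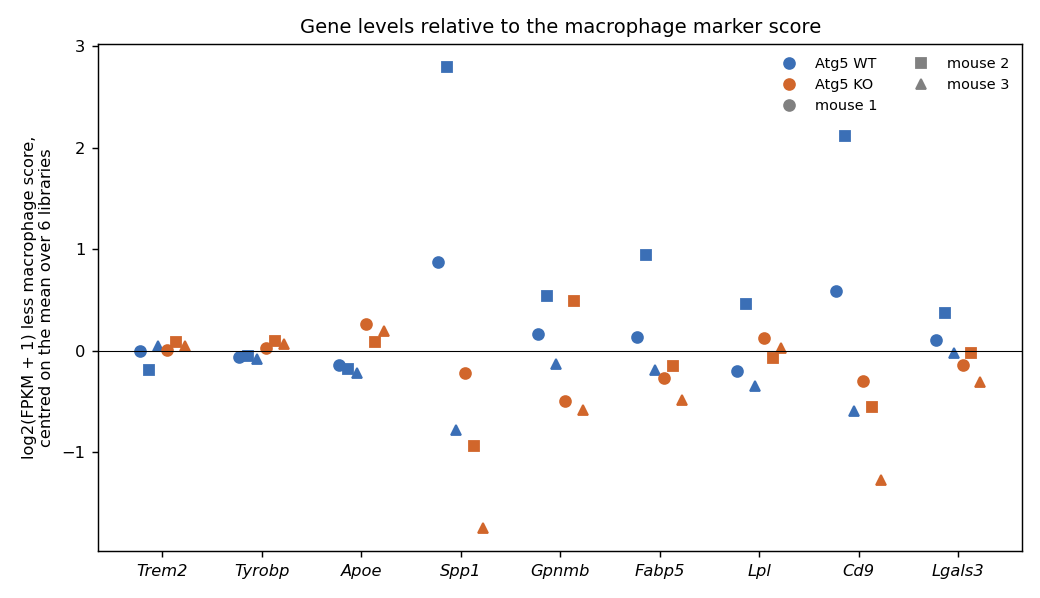
Log2(FPKM + 1) of each gene less the macrophage marker score of the same library, centred on the mean over 6 libraries; blue is Atg5 WT, orange Atg5 KO, and marker shape the mouse number. Trem2, Tyrobp and Apoe lie in narrow bands, and Spp1 and Cd9 spread widely. The groups are apart for Tyrobp and Apoe, higher with the KO label, and barely apart for Lgals3, lower with it.

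By level, the 9 genes ran from Apoe at a mean FPKM of 19335 over the 6 libraries through Tyrobp at 1228, Spp1 at 986, Lgals3 at 460, Cd9 at 127, Trem2 at 65.6, Lpl at 56.2 and Fabp5 at 38.6 to Gpnmb at 22.1. Apoe was above Tyrobp in 6 of 6 libraries, by 3.94 ± 0.150 on the log2(FPKM + 1) scale (SD, n = 6). Tyrobp against Spp1 (0.46 ± 1.67) and Spp1 against Lgals3 (0.89 ± 1.41) differed by less than their spread, with the first gene above the second in 4 libraries each. Lgals3 was above Cd9 and Fabp5 above Gpnmb in 6 of 6, while Cd9 against Trem2 (1.01 ± 1.29) and Trem2 against Lpl (0.15 ± 0.362) were within their spread. FPKM depends on the listed gene length, which for Trem2 (4784 bases) and Fabp5 (3238 bases) equals that of a retained-intron transcript in GENCODE release M21, 4.40 and 3.28 times the principal coding transcript of 1088 and 987 bases. If every counted read lay in the principal coding transcript, the mean level of Trem2 would be 288 and that of Fabp5 127. That would put Trem2 above Cd9 in the order and Fabp5 next to Cd9. Reads in the retained introns were not separated, so these 2 values are upper limits. The length used affects levels between genes and not the differences between groups.

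By the root mean square difference of centred log2(FPKM + 1) over the 6 libraries, the genes most like Trem2 among 11461 compared were Ms4a6d, a membrane protein of macrophages (0.0380), Fcer1g, another adaptor with an activation motif (0.0412), and Csf1r, the receptor for colony-stimulating factor 1 (0.0493). The nearest to Tyrobp were Cd48, Lcp2 and Gpr34 (0.0380 to 0.0427) and to Apoe Arl11, Pla2g7 and P2ry13 (0.0423 to 0.0456). The nearest to Spp1 were Nes, Ildr1 and Dusp8, and to Cd9 Phlda1, Slc18b1 and Midn. Gpnmb was nearest to Spink2, Fxyd2 and Gypc, and Fabp5 to Lrpap1, Ybx1 and Map3k14 (0.0150 to 0.0283). Lpl ran with Plcb2, Chst1 and Nlrp1b, and Lgals3 with Dock10, Dtx4 and the cholesterol exporter gene Abca1. Among the members themselves the closest pair was Trem2 and Tyrobp (0.0795), followed by Tyrobp and Apoe (0.137).

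Genes of signalling from Trem2 and Tyrobp, listed together with Adam10, Adam17, Cd33, Ms4a4a and Ms4a6d, mostly shared the positive direction. Of 17 genes tested, 15 had a higher mean in the Atg5 KO-labelled libraries, with a median log2 difference of 0.55, and 4 of them did so without overlap. Over all genes tested 37.2% had a positive difference and 9.2% were higher without overlap. No gene of the list passed over all genes. None of them had an unadjusted p under 0.05, where 10% of all genes did. The sister adaptor Hcst (DAP10), which couples to phosphoinositide 3-kinase, stood at an FPKM of 12.2 ± 6.38 against 21.5 ± 1.49. Btk, a kinase downstream of activation motifs, had 18.8 ± 9.06 against 30.4 ± 3.59, the adaptor gene Card9 20.6 ± 7.42 against 30.9 ± 4.70, and the phospholipase gene Plcg2 45.0 ± 6.37 against 54.2 ± 3.85. These 4 had the smallest p of the list (limma-trend adjusted p = 0.492 to 0.501).

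Other genes of the lipid-associated programme ran likewise, 26 of 29 tested with a higher mean and a median of 0.52. The groups did not overlap for 8 higher genes and 1 lower gene, and none passed (5 at an unadjusted p under 0.05). Over all genes tested 37.2% were positive, 9.2% were higher and 9.41% lower without overlap, and 10% had an unadjusted p under 0.05. Lipa, the lysosomal acid lipase, had 111, 108 and 111 in Atg5 WT-labelled libraries and 134, 136 and 141 in the Atg5 KO-labelled ones, narrow ranges in both groups. Abcg1, a cholesterol exporter, had 42.6, 21.04 and 55.9 against 77.8, 66.1 and 93.9, and the chemokine gene Ccl6 511, 334 and 739 against 827, 927 and 1070. Csf1, the macrophage growth factor, was the gene with lower values in every library labelled Atg5 KO, at 12.2, 17.1 and 6.91 against 6.63, 4.99 and 2.78. The 4 had a limma-trend adjusted p of 0.492 each. For comparison, 16 of the 18 macrophage markers had a higher mean, with a median of 0.79, and their part in these counts was not tested. Csf1 is also known from fibroblasts and endothelium, whose markers ran lower too, and their part in the Csf1 values was not tested.

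Receptors and binding partners of the secreted members and of Cd9 had a negative difference for 15 of 21 genes. The median was -0.25, where 62.8% of all genes tested were negative. Sdc4, a heparan sulphate proteoglycan, had 199, 205 and 185 in Atg5 WT-labelled libraries and 111, 115 and 72.1 in the Atg5 KO-labelled ones, without overlap. Itgav, an integrin chain that binds osteopontin, had 23.6, 24.2 and 26.7 against 19.9, 19.9 and 20.0, also without overlap. The 3 Atg5 WT-labelled libraries lay close together for both genes. Ptgfrn, a partner of Cd9, had 11.5 ± 3.64 against 6.64 ± 1.89, with overlap. Sdc4, Itgav and Ptgfrn each had an unadjusted p under 0.05 and a limma-trend adjusted p of 0.492. In the list 4 of 21 genes had an unadjusted p under 0.05, where 10% of all genes tested did. Without overlap 3 of the 21 were lower and 1 higher, where 9.41% of all genes were lower and 9.2% higher.

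**Figure D5:**
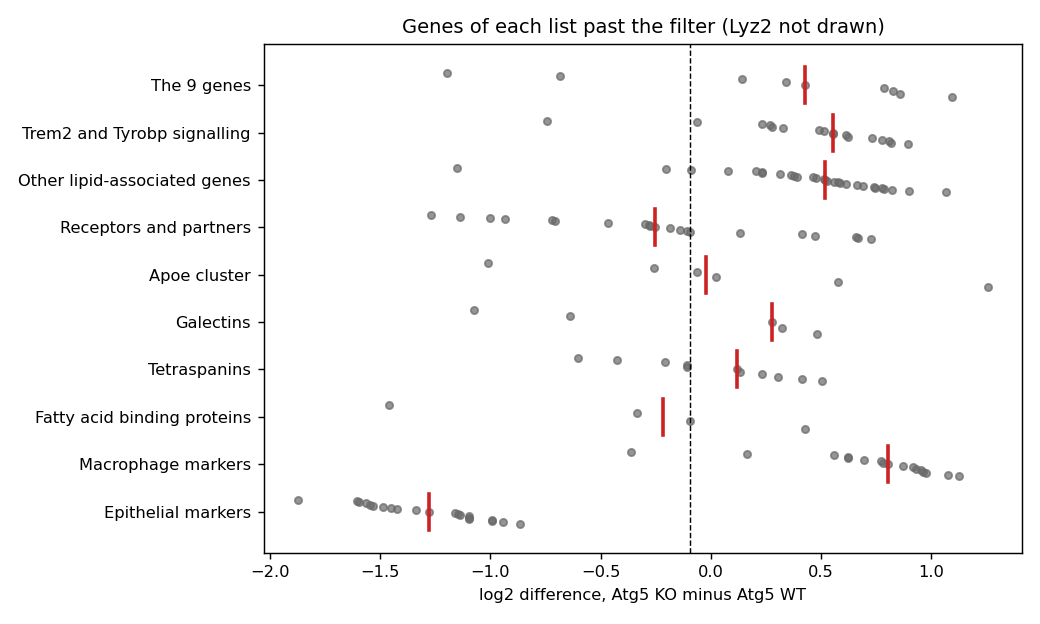
Log2 difference of every tested gene of each list (grey points), the list's median (red bar) and the median of all 12332 genes tested (dashed line at -0.09). The 9 genes span both sides, 16 of 18 macrophage markers lie above 0 (Lyz2, lower, is not drawn) and all 21 epithelial markers below it.

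Relatives of the members in the same gene families had differences in both directions, where 37.2% of all genes tested had a positive one. Within the TREM family on chromosome 17, Treml4 had 3.55 ± 1.66 against 7.27 ± 2.76 and Treml2 1.80 ± 0.783 against 3.11 ± 0.520, while the other tested genes, Trem1 and Trem3, had lower means. Among other galectins 3 of 5 tested were higher, Lgals8, which binds glycans on damaged vacuoles, at 25.8 ± 2.88 against 32.4 ± 2.71 and Lgals9 at 118 ± 40.3 against 158 ± 9.76. Among other tetraspanins 6 of 11 were higher (median 0.12), and the smallest p were those of Tspan33 (6.41 ± 1.34 against 4.50 ± 0.925) and Cd151 (39.5 ± 16.1 against 24.4 ± 4.90). Of 4 other fatty acid binding proteins tested 1 was higher. Fabp4, the adipocyte and macrophage form, had 83.7, 119 and 24.5 against 38.6, 20.7 and 13.5, and Fabp3 2.23 ± 0.200 against 1.63 ± 0.771. In the lipase list Lipe had 6.97 ± 1.30 against 8.10 ± 0.125, and Lipa is given above. The bone and tooth relatives of Spp1 (Ibsp, Dmp1, Dspp and Mepe) and the Gpnmb relative Pmel were all under a mean FPKM of 1 and were not tested. No gene of these families passed (limma-trend adjusted p from 0.492).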

How the data were processed

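RNA was sequenced from 6 libraries of sorted tumour macrophages, 3 mice per group, grouped by the labels' titles. The deposited values are FPKM, reads scaled by the authors to gene length and counted reads, per the file headers. The submitters' processing notes name STAR, CASAVA and mm10. No source used here gives the counting program, strand setting or annotation release. FPKM times the listed length was divided by its smallest nonzero value in the library, which was taken as a single read. The result was a whole number of reads, within 0.01 read, for 100.0% of nonzero values.

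Values were fitted as log2(FPKM + 1) for genes whose mean FPKM was at least 1 (limma-trend, limma 3.58.1, R 4.3.3, group as the only term, two-sided, Benjamini-Hochberg over 12332 genes, threshold 0.05); this scale understates changes of low genes. The fit was tested on simulated data with the spread of these libraries, each gene drawn independently. It called 41.6% of genes with a log2 change of 1, 82.4% with a change of 3 and 0.0671% of unchanged genes. Of the listed symbols 224 matched the table, 2 matched by gene ID, 1 was a duplicate and 1 was not matched; Clec7a is on 2 rows and was left out. The genes named from each list were those of smallest p, up to 4 per pathway list and 2 per family, and for likeness the 3 nearest genes; 1 gene that the rule named is not reported here. Members, lists and rules were chosen with earlier results of these data known. Krt8, Trem1 and Trem3 were chosen after their values were seen. Library weights were not used here.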

Additional observations from a re-analysis of the deposited data

How the results depend on the processing

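None of the 9 genes passed in any of the 16 alternatives, which for a test that calls so few genes says nothing about stability. Tyrobp, Apoe and Lpl stayed positive and Spp1 and Cd9 negative in all 16. The changes of filter and the replicate block leave each difference as it was by construction, so a sign could not turn there. With the epithelial score as covariate Gpnmb was at -0.041 and Fabp5 at -0.054; with the macrophage score Trem2 was at -0.0062, Gpnmb at -0.11, Fabp5 at -0.11 and Lgals3 at -0.14, and the median over the 9 genes was -0.11. With the epithelial score and without Atg5 WT replicate 2, chosen after seeing the data, Gpnmb, Fabp5 and Lgals3 were at -0.089, -0.082 and -0.049, the median was -0.049, and 17 genes were called in all. Leaving out 1 library, Fabp5 ran from -0.027 (without Atg5 WT replicate 2) to 0.27 (without Atg5 WT replicate 3). Leaving out each library in turn, the median ran from 0.043 (without Atg5 WT replicate 2) to 0.72 (without Atg5 WT replicate 3), the genes called over the whole table from 0 to 18 (2 higher and 16 lower without Atg5 WT replicate 2; 1 with all 6 libraries), and the log2 ratio of Trem2 to Tyrobp differed by -0.11 to 0.020. No gene was called with no filter, with median-ratio scaling or with a replicate block, where 732, 672 and 611 genes were higher and 1138, 584 and 755 lower at an unadjusted p under 0.05. Quantile normalization moved the median of all genes from -0.09 to 0.04 and turned no member, but took Apoe from 1.10 to 0.42. Mouse numbers were not used to pair the samples in the main fit. Correlations of deviations were 0.21, -0.38 and 0.59 for like numbers 1 to 3, and -0.81 to 0.73 for unlike numbers. So few values cannot settle whether the numbers pair samples. The replicate block lowered the smallest limma-trend adjusted p of a member to 0.370 from 0.492, with 3 members instead of 1 at an unadjusted p under 0.05. Over the principal coding transcript, an alternative added after seeing the data, Trem2 stood at 288 and Fabp5 at 127 FPKM. Both are upper limits, since every read was taken to lie in that transcript.

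The intervals were wide, from -0.39 to 2.05 for Trem2. Members had at least 838 reads in every library, and the part of depth in these intervals was not tested. Labels give separate mice, and p-values measure the spread between them.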

Other observations

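The neighbours of Apoe in its cluster on chromosome 7 had differences in both directions. Apoc2, the activator of Lpl, stood at an FPKM of 32.6, 15.9 and 46.3 in the Atg5 WT-labelled libraries and of 68.3, 55.6 and 93.2 in the Atg5 KO-labelled ones, without overlap (log2 difference 1.26, SE 0.41, limma-trend adjusted p = 0.492). Apoc4 had 1.63 ± 0.884 against 2.80 ± 0.708. Apoc1, an inhibitor of lipoprotein uptake, had 21.8, 41.8 and 12.03 against 27.6, 16.4 and 21.2, with its highest and lowest library both labelled Atg5 WT and the highest in Atg5 WT mouse 2, the library with the most epithelial transcripts. Tomm40, a mitochondrial import pore gene, had 13.4 ± 1.18 against 11.02 ± 0.118 without overlap (limma-trend adjusted p = 0.492), and Clptm1 37.2 ± 1.53 against 37.9 ± 0.775. Pvrl2, a cell adhesion gene also called Nectin2, had 17.7 ± 11.2 against 7.59 ± 4.09, the lowest log2 difference of the cluster (-1.01, SE 0.57, limma-trend adjusted p = 0.520). Apoc1, Apoc4, Pvrl2 and Clptm1 are named after their values were seen. None of the 6 genes of the cluster tested passed.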
